A study of Mus musculus with 20 samples.

Results

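The 10 genes described here are known to be switched on in neurons after axon damage or strong stimulation, and they are 10 of the 39174 genes measured. They were followed through cultured mouse motoneurons with and without knockdown of Tdp-43, separately for axons and for cell bodies with dendrites. The choice was by name: the AP-1 subunits Jun, Junb and Fos, the immediate early genes Egr1 and Arc, the ATF family genes Atf3 and Atf4 with their partner Ddit3, the growth arrest gene Gadd45a and the regeneration gene Sprr1a. All 10 names were found in each library. Motoneurons came from spinal cord of CD-1 mouse embryos, were enriched by panning for the neurotrophin receptor p75 and grew for a week in microfluidic chambers, in which axons cross into a compartment of their own. Both sides received CNTF and the axonal side also received BDNF. Knockdown cultures were transduced with a lentivirus that expresses a short hairpin RNA against Tdp-43 (shTdp-43), and control cultures with the empty lentiviral vector, so that all groups carry a lentivirus. Total RNA of each compartment was amplified as a whole transcriptome before sequencing. This gave 4 axonal control, 6 axonal knockdown, 4 somatodendritic control and 6 somatodendritic knockdown libraries. The labels do not say whether replicates are separate cultures, so p-values measure the spread between these libraries, which may be technical. Nor do they say whether same-numbered axonal and somatodendritic libraries come from the same culture, and the tests treat them as unpaired.

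Jun, Junb and Fos proteins pair into the transcription factor AP-1, which binds the letters TGACTCA. Their genes, Egr1 and Arc respond within minutes to activity or growth factors without new protein synthesis. After axon injury, the kinases Dlk and Jnk signal back to the nucleus, where Jun and Atf3 rise and switch on regeneration genes such as Sprr1a. A separate pathway, the integrated stress response, raises translation of Atf4, which drives Ddit3 (the apoptosis regulator CHOP) and the amino acid enzyme Asns.

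The values are FPKM, fragments scaled for transcript length and for the number of mapped fragments. Their 95% intervals give an implied number of fragments per value, and depth set the limits here. Relative depth, with the deepest library at 1, was 0.530 to 0.674 in axonal control, 0.612 to 1 in somatodendritic control, 0.103 to 0.760 in axonal knockdown and 0.143 to 0.698 in somatodendritic knockdown libraries. For Junb, 1 fragment was worth from 0.754 to 7.32 FPKM, depending on the library. Over the 20 libraries the implied fragments summed to 910 for Atf4, 294 for Jun, 143 for Egr1, 52.0 for Junb, 39.2 for Ddit3, 37.5 for Fos, 21.2 for Gadd45a, 8.69 for Arc, 4.33 for Atf3 and 0 for Sprr1a.

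Tardbp, the knocked-down gene that encodes Tdp-43, had 30.8, 19.0, 29.6 and 29.9 FPKM in the somatodendritic control libraries and from 0 to 8.54 (median 3.86) in the 6 knockdown libraries, without overlap (log2 difference -3.06, SE 0.57, limma adjusted p = 0.0228, and 0.0615 to 0.0955 with any 1 control library left out). In axons it had 32.3, 20.1, 32.3 and 13.4 FPKM in control and from 1.21 to 33.2 (median 12.3) in knockdown libraries (log2 difference -1.71, SE 0.63, limma adjusted p = 0.425). The library labelled axonal knockdown replicate 1 held 33.2 FPKM, above every control library, so values without it are given where it moves a result. With it left out, the axonal Tardbp difference was -1.9999 (limma adjusted p = 0.276), and none of the 8 tested members changed direction or passed in the axonal knockdown comparison. The motoneuron markers were near 0 in all groups. Of 7 such genes measured, Chat, Mnx1 and Isl2 were listed at 0 in all 20 libraries, and the sum of the list was 0 to 8.90 FPKM in axonal control, 1.99 to 5.51 in somatodendritic control, 0 to 6.72 in axonal knockdown and 1.33 to 8.03 in somatodendritic knockdown libraries. The astrocyte list, led by Slc1a3, summed to between 94.4 and 442 FPKM over all libraries. In such bulk RNA, fewer cells of a type and less RNA per cell cannot be told apart.

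**Figure D1:**
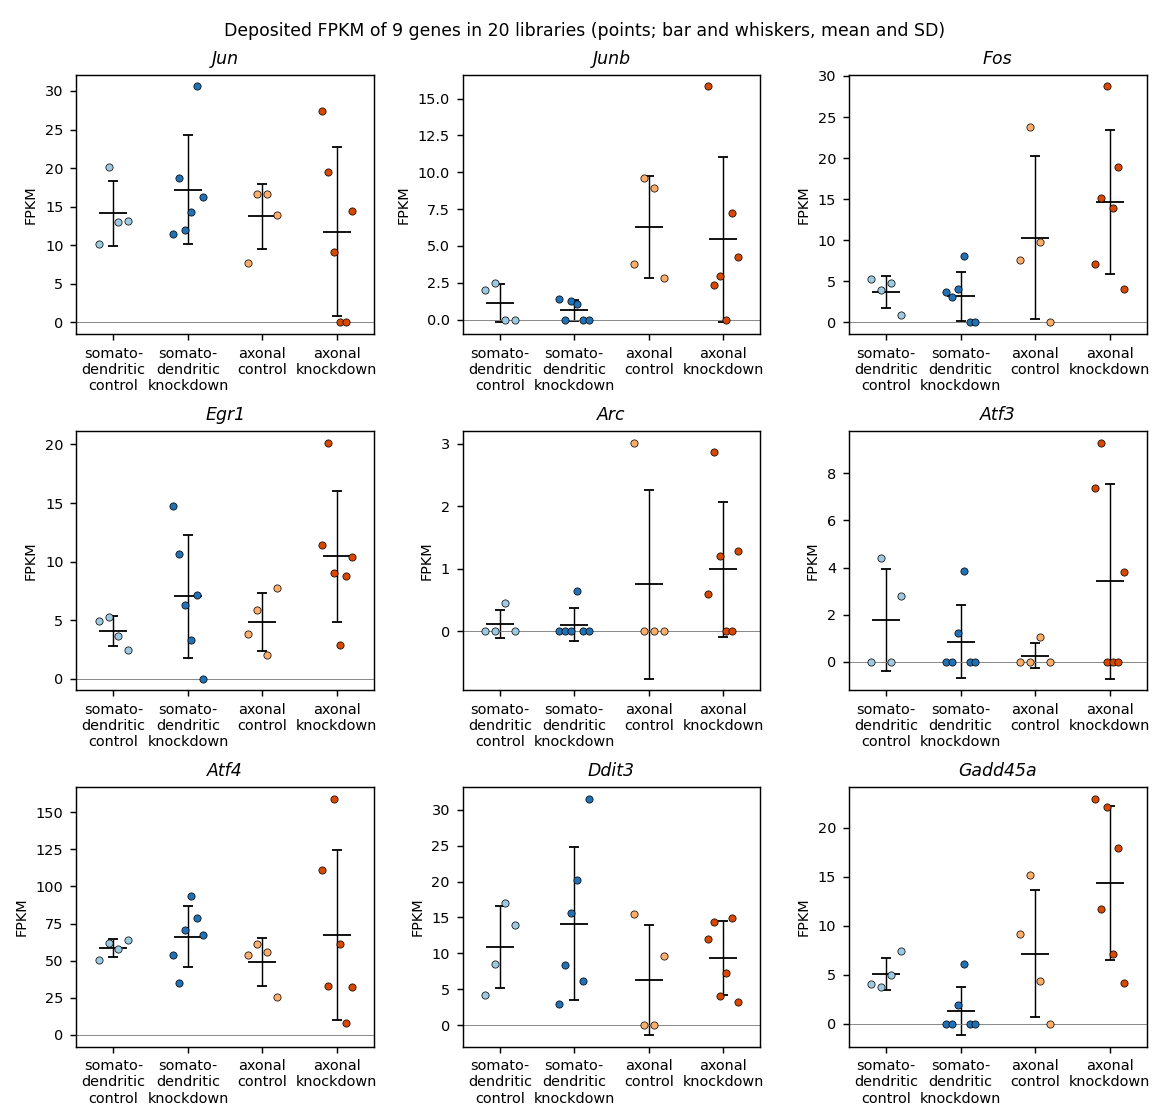
FPKM (linear axis, as deposited) of 9 genes in the 20 libraries, by group on the horizontal axis. Points are libraries, and the bar and whiskers are the mean and SD. Junb of the 4 axonal control libraries (2.84 to 9.60) lay above that of all 4 somatodendritic control libraries (0 to 2.46), and Atf4 was above 0 in every library. Sprr1a, at 0 throughout, is not drawn.

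Atf4 (ENSMUSG00000042406, chr15:80255184-80257540 on GRCm38) was the most abundant of these genes in every group and the only member above 0 in all 20 libraries. Its mean of 61.6 FPKM stood at percentile 94.9 of the 14062 genes whose mean reached 1 FPKM. Somatodendritic control libraries held 50.6, 61.8, 57.9 and 63.7 FPKM, and somatodendritic knockdown libraries from 34.7 to 93.4 (median 68.7). Axonal control libraries held 53.5, 61.5, 56.0 and 25.8 FPKM, and axonal knockdown libraries from 7.72 to 159 (median 47.0). The groups overlapped in every comparison, and the axonal knockdown libraries spread widest, with the lowest value in the shallowest library, where it rested on 1 implied fragment.

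The effect of Tdp-43 knockdown on Atf4 did not pass the test in either compartment. In cell bodies the log2 difference was -0.09 (95% interval -0.60 to 0.42, limma adjusted p = 0.902). In axons it was -0.54 (interval -1.80 to 0.73, limma adjusted p = 0.831). Between compartments it was 0.21 in control (interval -0.415 to 0.83, limma adjusted p = 0.712) and -0.21 in knockdown libraries (interval -1.26 to 0.84, limma adjusted p = 0.877). Across the 20 libraries, the genes whose log2 levels most resembled those of Atf4, among 8833 candidates, were Dnaja3 (Pearson r = 0.879), Asns (r = 0.877) and Usp10 (r = 0.875). Dnaja3 encodes a mitochondrial co-chaperone and Usp10 a deubiquitinase. These r values are descriptions over libraries that differ in depth and group, and the part of either in them was not tested. Asns was 39.7 FPKM in the median somatodendritic control library and 29.8 in the median axonal control library.

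Ddit3 (ENSMUSG00000025408, chr10:127290774-127296288) is the Atf4 target that encodes CHOP, a transcription factor of prolonged stress. The somatodendritic control group held 4.17, 8.46, 17.01 and 13.9 FPKM, and somatodendritic knockdown libraries from 2.96 to 31.5 (median 11.99). The axonal control group held 15.5, 0, 0 and 9.69 FPKM, and axonal knockdown libraries from 3.28 to 14.96 (median 9.67). Ddit3 was thus listed at 0 in 2 of the 4 axonal control libraries and in no other, and all pairs of groups overlapped. Knockdown against control gave a log2 difference of -0.02 in cell bodies (interval -1.27 to 1.23, limma adjusted p = 0.993). In axons the difference was 0.996 (interval -0.85 to 2.84, limma adjusted p = 0.769). Axonal against somatodendritic was -1.19 in control (interval -3.26 to 0.89, limma adjusted p = 0.501) and -0.18 in knockdown libraries (interval -1.38 to 1.03, limma adjusted p = 0.912). On the opposite strand Ddit3 overlaps Mars by 68 bases and Gm4189 by 15, and strand was not stated, so reads there cannot be told apart.

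Atf3 (ENSMUSG00000026628, chr1:191170296-191183340), the classical marker of injured motoneurons and partner of Jun, was barely detected. It was above 0 in 8 of 20 libraries. Axonal control libraries held 0, 0, 1.03 and 0 FPKM, and axonal knockdown libraries 0 to 9.31 (median 1.90, with 3 of 6 above 0). Somatodendritic control libraries held 0, 4.39, 0 and 2.77 FPKM, and somatodendritic knockdown libraries 0 to 3.84 (median 0). The axonal knockdown mean of 3.42 FPKM beside 0.259 in control came from 2.78 implied fragments against 0.0590. The difference did not pass the test (log2 difference 1.06, interval -0.59 to 2.71, limma adjusted p = 0.730). Omitting the library labelled axonal knockdown replicate 1 gave 0.79 (limma adjusted p = 0.776). Knockdown against control in cell bodies was -0.58 (interval -2.03 to 0.86, limma adjusted p = 0.755), and axonal against somatodendritic in knockdown libraries was 0.99 (interval -0.55 to 2.53, limma adjusted p = 0.529).

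Sprr1a (ENSMUSG00000050359, chr3:92483952-92485895), an envelope protein gene that regenerating neurons express, was listed at 0 in all 20 libraries. At the length of its transcript, 3 fragments would be 5.18 to 47.7 FPKM, so levels below that range could go unseen, counting error only. Its start region holds letters of the AP-1 site, shown here because AP-1 is a known regulator of this gene. Promoters are RefSeq sequences on GRCm38.p6, 250 bases before to 50 after each gene's start. Those of 8 of the 10 genes were searched and counted here, and Egr1 and Arc were left out of that count. Both strands were searched. The AP-1 site TGACTCA, which reads TGAGTCA on the other strand, is in 5.2% of 32851 promoters and in 2 of the 8, Sprr1a and Ddit3. The variant TGACATCA, through which Jun is known to act on its own gene, is in 3.62% of promoters and in 2 of the 8, Jun and Sprr1a. TGACGTCA, the cAMP response element that ATF proteins bind, is in 1.79% of promoters and 0 of the 8, and TGATGCAAT, bound by Atf4 with C/EBP partners, in 0.192% and 0 of the 8. No 2 of these matches overlapped. The windows below run 5′ to 3′ on the gene's strand, with the match in capitals.
Sprr1a, variant, 207 bases before the start, chr3:92486070-92486099, minus strand: gagaacccaggTGACATCAttgtcaaactg
Sprr1a, AP-1 site, 146 bases before the start, chr3:92486009-92486038, minus strand: ataactaaagcTGAGTCAgagggtgaacta
Sprr1a, AP-1 site, 116 bases before the start, chr3:92485979-92486008, minus strand: ggggaggagggTGAGTCAtaggtgactggt
Jun, variant, 45 bases before the start, chr4:95052249-95052278, minus strand: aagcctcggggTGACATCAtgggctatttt
Ddit3, AP-1 site, 242 bases before the start, chr10:127290543-127290572, plus strand: cgcgcgcaTGACTCActcacctcctccgcg
A match is a description of these letters and not evidence of binding. Sprr1a holds 3 of the 5 matches and was at 0, while Jun and Ddit3 were each above 0 in 18 of 20 libraries.

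Jun (ENSMUSG00000052684, chr4:95049034-95052222), the AP-1 subunit that Jnk phosphorylates, was the second most abundant member in 3 of the 4 groups. Somatodendritic control libraries held 10.2, 20.1, 13.1 and 13.2 FPKM, and somatodendritic knockdown libraries from 11.4 to 30.6 (median 15.3). Axonal control libraries held 7.72, 16.7, 16.7 and 13.9 FPKM, and axonal knockdown libraries from 0 to 27.4 (median 11.8). The 2 axonal knockdown libraries at 0 have relative depths of 0.316 and 0.103, below every control library. Other shallow libraries held Jun: axonal knockdown replicate 2, at 0.316, had 19.5 FPKM, and somatodendritic knockdown replicates 5 and 6, at 0.256 and 0.143, had 30.6 and 16.3. The part of depth in the 2 values at 0 was not tested.

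No Jun difference passed the test. Knockdown against control was 0.03 on the log2 scale in cell bodies (interval -0.62 to 0.68, limma adjusted p = 0.977) and -1.52 in axons (interval -3.39 to 0.34, limma adjusted p = 0.670). Axonal against somatodendritic was 0.44 in control (interval -0.31 to 1.18, limma adjusted p = 0.488) and -1.18 in knockdown libraries (interval -2.86 to 0.50, limma adjusted p = 0.486). With the libraries under a relative depth of 0.5 left out, the last of these was 0.25 (limma adjusted p = 0.796). Jun overlaps the antisense gene Junos by 689 bases.

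Junb (ENSMUSG00000052837, chr8:84976909-84978748), the AP-1 subunit often set against Jun in growth control, was higher in control axons than in control cell bodies. Axonal control libraries held 3.76, 9.60, 8.93 and 2.84 FPKM, which are 3, 7, 8 and 2 fragments. Somatodendritic control libraries held 2.02, 2.46, 0 and 0 FPKM, which are 2, 2, 0 and 0 fragments. These groups did not overlap, and the difference was 2.16 on the log2 scale (SE 0.57, n = 4 and 4, limma adjusted p = 0.0456). Junb was the only member called in this comparison, 1 of 7 tested, beside 6.85% of 13699 genes called and 3.93% called higher. Before adjustment, too, Junb alone of the members passed, beside 22.9% of genes. With a scaled mean of 0.936 FPKM in control cell bodies and 7.39 in control axons, Junb entered the test through its axonal values, so that it was tested is no support for the difference. Values that did not overlap, with axons higher, were found for 7.7% of genes after scaling and for 3.34% as deposited. The call is narrow: over 13 alternatives and omissions the adjusted p of limma ran from 0.0423 to 0.218, and it passed in 3 of them. Leaving out any 1 of the 4 control replicates ended the call (0.0640 to 0.218). The test was unpaired, and fitting replicate number as a block ended the call too. In the same libraries the summed fibroblast markers were 11.9 to 47.9 FPKM in axons and 1.94 to 12.5 in cell bodies, and the dividing cell markers 94.4 to 179 and 49.1 to 69.3, and their part in the Junb difference was not tested.

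In knockdown libraries Junb was from 0 to 15.8 FPKM in axons (median 3.63) and from 0 to 1.43 in cell bodies (median 0.540), and the groups overlapped. The axonal minus somatodendritic difference was 1.72 (SE 0.63, interval 0.40 to 3.04, limma adjusted p = 0.174) and 1.38 when the library labelled axonal knockdown replicate 1 was left out (limma adjusted p = 0.289). That library held the 16 fragments behind the highest value. Knockdown against control was -0.93 in axons (interval -2.43 to 0.56, limma adjusted p = 0.736). In cell bodies Junb had too low a mean to be tested.

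Fos (ENSMUSG00000021250, chr12:85473890-85477273), the immediate early partner of Jun, had its highest values in axons. Its axonal control values were 7.65, 23.8, 9.74 and 0 FPKM, and axonal knockdown values ran from 4.01 to 28.7 (median 14.5). Its somatodendritic control values were 5.28, 3.93, 4.81 and 0.870 FPKM, and somatodendritic knockdown values ran from 0 to 8.06 (median 3.44). In control, 3 of the 4 axonal libraries exceeded every somatodendritic library and the last was at 0. Neither difference between compartments passed the test: 1.06 in control (SE 0.88, interval -0.87 to 2.99, limma adjusted p = 0.517) and 2.27 in knockdown libraries (SE 0.61, interval 0.98 to 3.57, limma adjusted p = 0.0765). Knockdown against control was 0.52 in axons (interval -1.16 to 2.199, limma adjusted p = 0.885) and -0.605 in cell bodies (interval -2.05 to 0.84, limma adjusted p = 0.748).

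Gadd45a (ENSMUSG00000036390, chr6:67035096-67037457), a growth arrest and DNA damage gene that p53 and Atf4 induce, was higher in axons than in cell bodies of knockdown cultures. Axonal knockdown libraries held from 4.17 to 23.0 FPKM (median 14.8) and somatodendritic knockdown libraries from 0 to 6.11 (median 0), where 4 of 6 were at 0. The difference was 3.12 on the log2 scale (SE 0.59, interval 1.87 to 4.36, n = 6 and 6, limma adjusted p = 0.0207), with partly overlapping values. This was the only member called of 8 tested, beside 1.28% of 13942 genes called and 0.861% called higher. Before adjustment Fos also passed, as did 16.6% of genes in either direction and 7.9% as higher. Junb did too, but its mean in knockdown cell bodies was 0.634 FPKM, so it entered the test through its axonal values and is not counted as support. Gadd45a itself had a scaled mean of 1.16 FPKM in knockdown cell bodies, so it too passed the filter mainly through its axonal values. Its somatodendritic knockdown values together rested on 0.770 implied fragments, 0.713 of them in replicate 4, and the axonal ones on 13.9. Omitting the library labelled axonal knockdown replicate 1 gave a difference of 2.98 (limma adjusted p = 0.0512), and with the libraries under a relative depth of 0.5 left out it was 2.77 (limma adjusted p = 0.112). Without both libraries of knockdown replicate 1, 2, 5 or 6 the limma adjusted p was 0.117, 0.119, 0.0668 and 0.0713. The test was unpaired, and fitting replicate number as a block also ended the call. The summed fibroblast markers were 20.3 to 101 FPKM in these axonal libraries and 1.80 to 13.9 in the somatodendritic ones, and their part in the Gadd45a difference was not tested. Gadd45a overlaps E230016M11Rik on the opposite strand by 859 bases.

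In control libraries Gadd45a was 9.15, 15.1, 4.35 and 0 FPKM in axons and 4.02, 3.77, 5.03 and 7.38 in cell bodies (log2 difference 0.28, interval -1.39 to 1.96, limma adjusted p = 0.865). Knockdown against control in cell bodies was -1.94 (interval -3.22 to -0.66, unadjusted p = 0.00604, limma adjusted p = 0.145), which does not pass after adjustment. In axons it was 0.86 (interval -0.69 to 2.42, limma adjusted p = 0.764). The knockdown effect in axons minus that in cell bodies, tested as an interaction, was 2.70 (SE 0.99, interval 0.66 to 4.75, unadjusted p = 0.0119, limma adjusted p = 0.809), so a difference between compartments in the knockdown effect is not shown.

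**Figure D2:**
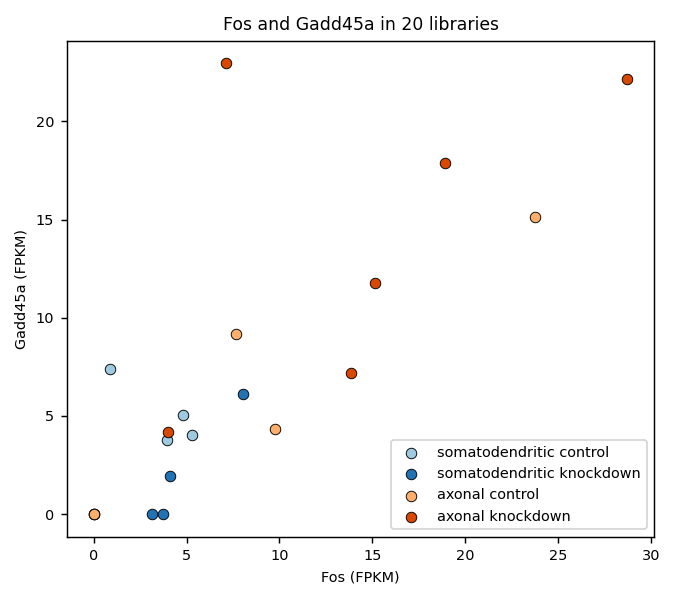
Fos (horizontal) and Gadd45a (vertical), both FPKM on linear axes, in the 20 libraries, coloured by group. Libraries at 0 for both genes coincide at the origin, and the highest values of both genes are from axonal libraries, up to 28.7 FPKM for Fos and 23.0 for Gadd45a.

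Fos and Gadd45a varied together more than any other pair of the 8 members with a test in knockdown axons, as the plot of both genes shows. Pearson's r of their log2 levels over the 20 libraries was 0.829, and 0.758 after the group means were taken out. Both had the same genes nearest in pattern: Stx4a (r = 0.829 with Fos and 0.839 with Gadd45a), Syde1 (0.789 and 0.830) and Myo9b (0.840 and 0.825). Stx4a encodes a membrane fusion syntaxin. Both values of a point come from the same library, the libraries differ in depth, and the sums behind Fos and Gadd45a are small. The genes nearest to Jun were Osbpl1a (r = 0.901), Hcfc1r1 (r = 0.9) and Snrnp70 (r = 0.895), those nearest to Egr1 were Rpl21-ps10, Gm13320 and Gm10240 (r from 0.815 to 0.829), and those nearest to Ddit3 were Rnpc3, Mlc1 and Gm14539 (r from 0.708 to 0.731).

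Egr1 (ENSMUSG00000038418, chr18:34859823-34864984), a zinc finger immediate early gene of growth factor and synaptic signalling, was detected in 19 of 20 libraries. The somatodendritic control group held 4.89, 5.23, 3.66 and 2.41 FPKM, and somatodendritic knockdown libraries from 0 to 14.8 (median 6.71). The axonal control group held 3.79, 5.82, 2.03 and 7.75 FPKM, and axonal knockdown libraries from 2.88 to 20.2 (median 9.70). After scaling, axonal values were 2.61 to 8.96 in control and 2.58 to 19.8 in knockdown libraries, so the groups overlapped. The knockdown difference was 0.47 in axons (interval -0.73 to 1.68, limma adjusted p = 0.842) and 0.11 in cell bodies (interval -1.29 to 1.501, limma adjusted p = 0.964). Axonal against somatodendritic was 0.56 in control (interval -0.42 to 1.53, limma adjusted p = 0.501) and 0.98 in knockdown libraries (interval -0.34 to 2.30, limma adjusted p = 0.457).

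Arc (ENSMUSG00000022602, chr15:74669083-74672570), which encodes a synaptic protein whose RNA travels into dendrites, was above 0 in 7 libraries. It was 3.02 FPKM in axonal control replicate 1 and 0 in the other 3, and 0.454 in somatodendritic control replicate 3 and 0 in the other 3. Axonal knockdown libraries held from 0 to 2.86 FPKM (median 0.897), and of the somatodendritic knockdown libraries only replicate 4 was above 0, at 0.651. Its mean was under 1 FPKM in each comparison, so it was not tested.

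**Figure D3:**
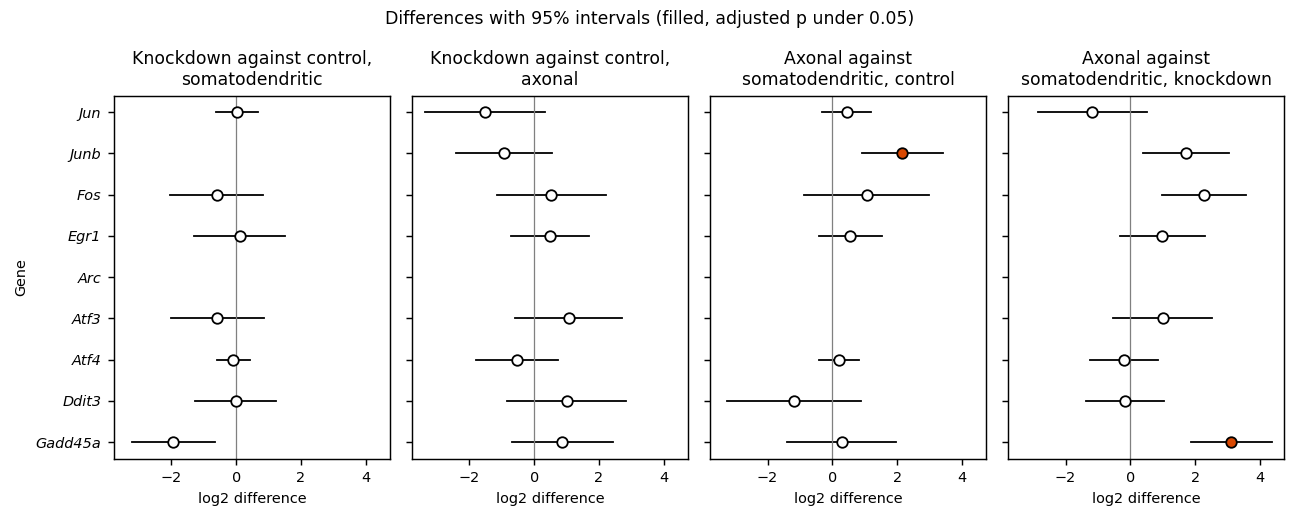
Log2 differences (horizontal axis, scaled FPKM plus 1) with 95% intervals from limma for each tested gene in the 4 comparisons. Filled points have an adjusted p under 0.05: Junb in control (2.16) and Gadd45a in knockdown libraries (3.12), both axonal against somatodendritic. Rows without a point were not tested.

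The knockdown comparisons address whether loss of Tdp-43 goes with other levels of the injury and immediate early genes, in each compartment. In cell bodies 0 of 7 tested members passed after limma's adjustment and 1, Gadd45a, before it (lower), beside 0.976% and 13.9% of 13734 genes. In axons 0 of 8 passed after and 0 before, beside 0.404% and 8.72% of 13847 genes. For the interaction 0 of 8 members passed after adjustment and 1, Gadd45a, before, beside 0.0713% and 5.66% of 14018 genes. The other 7 had limma adjusted p of at least 0.934 in the interaction.

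No median is given over the tested members, since Junb and Atf3 passed the filter on low values through 1 group alone in some comparisons. In the axonal knockdown comparison Atf3 had a scaled mean of 3.004 FPKM in knockdown and 0.332 in control libraries. Between compartments the median log2 difference over all genes was -0.04 in control and -0.06 in knockdown libraries, and with FPKM as deposited it was -0.48 and -0.24. The calls split accordingly: 538 of 939 were higher in control axons after scaling and 344 of 2055 as deposited, and for the knockdown effect in cell bodies 30 of 134 and 150 of 233 were higher. In control, Jun, Atf4 and Gadd45a then had differences below 0 (-0.05, -0.31 and -0.12). Each of these comparisons shares libraries with those of the knockdown effect.

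The wider immediate early list had 22 of 28 genes tested between compartments. In control, 6 were higher in axons, beside 3.93% of all genes, and 0 lower: Cyr61 (5.003 on the log2 scale, SE 0.40, limma adjusted p = 0.000217), Ctgf (4.65), Fosl2 (3.07), Klf4 (2.70), Nr4a3 (1.76) and Dusp1 (1.52). Cyr61 and Ctgf encode secreted matrix proteins, Fosl2 an AP-1 subunit, Klf4 and Nr4a3 transcription factors and Dusp1 a phosphatase of MAP kinases. Cyr61 was 78.7 to 214 FPKM in axonal control libraries and 2.24 to 10.8 in somatodendritic control libraries. Klf4, with a scaled mean of 0.679 FPKM in control cell bodies, passed the filter through its axonal values and is not counted as support. The list's median was 0.96 beside -0.04 over all genes, as a description, since 4 of the 22 had a mean under 1 FPKM in 1 compartment. With both libraries of control replicate 1, 2 or 3 left out 3 genes of the list passed, and without replicate 4 there were 9. With FPKM as deposited 5 were higher and 1 was lower. In knockdown libraries 1 of 22 was higher, beside 0.861% of all genes, Ctgf (4.71, SE 0.85, limma adjusted p = 0.0191), and 0 were lower. Without knockdown replicate 1, 2, 5 or 6 there were 0.

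Of the integrated stress response genes, 27 of 30 were tested between control compartments and 3 were higher in axons, beside 3.93% of all genes: Nupr1 (4.003, SE 0.63, limma adjusted p = 0.00505), Slc3a2 (1.31) and Shmt2 (1.31). Nupr1 encodes a stress-induced chromatin protein, Slc3a2 an amino acid transporter chain and Shmt2 a mitochondrial serine enzyme. Nupr1 was 4.95 to 47.3 FPKM in axonal and 0 to 2.21 in somatodendritic control libraries. Its scaled mean in those cell bodies was 0.428 FPKM, so it passed the filter through its axonal values and is not counted as support, which leaves Slc3a2 and Shmt2. With FPKM as deposited 1 gene of the list passed and the list's median of 0.35 became -0.13. Without control replicate 1 or 2 there were 0, without replicate 3 there was 1 and without replicate 4 there were 5, and array weights gave 5. In knockdown libraries 0 of 27 passed after adjustment, and 3 were higher before it, 1 of them with a mean under 1 FPKM in cell bodies, beside 7.9% of all genes. None of 25 in cell bodies and none of 29 in axons passed for the knockdown effect, with 0 and 2 at an unadjusted p under 0.05, those 2 lower, beside 13.9% and 8.72% of all genes.

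The p53 and Gadd45 list had 3 of 12 genes higher in control axons, beside 3.93% of all genes: Cdkn1a (1.39, SE 0.23, limma adjusted p = 0.00630), Gadd45g (1.96) and Pmaip1 (2.398). Cdkn1a encodes the cell cycle inhibitor p21, Gadd45g a relative of Gadd45a and Pmaip1 the death protein Noxa. Gadd45g was 7.07 to 17.3 FPKM in axonal and 2.12 to 6.48 in somatodendritic control libraries. Pmaip1, with a scaled mean of 0.749 FPKM in control cell bodies and 9.37 in control axons, passed the filter through its axonal values and is not counted as support. Without control replicate 1, 2 or 3 there were 0, and without replicate 4 there were 2. In knockdown libraries 0 of 11 passed after adjustment, and 3 were higher before it, beside 7.9% of all genes.

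Among the Jnk and Dlk signalling genes, 1 of 16 differed in control, Nmnat2 (-0.999, limma adjusted p = 0.0498), an axon survival enzyme, a share close to the 6.85% of all genes. In knockdown libraries 1 of 16 differed, beside 1.28% of all genes, Il6st (1.83, SE 0.42, limma adjusted p = 0.0452), the receptor chain for CNTF-like cytokines. With FPKM as deposited 7 genes of this list were lower in control axons, and without control replicate 1, 2 or 3 there were 0. In knockdown libraries 0 passed without knockdown replicate 1, 2, 4, 5 or 6. The regeneration-associated list split, and in control 10 of 19 passed, beside 6.85% of all genes. Of these 5 were higher in axons, including Cd44 (3.58, limma adjusted p = 0.000927), but Hspb1 and Tnfrsf12a, with scaled means of 0.393 and 0.446 FPKM in control cell bodies, passed the filter through axons and are not counted as support, and 5 were lower, including Crmp1 (-1.52) and Stmn2 (-1.37), growth cone genes. In knockdown libraries 1 was higher and 5 were lower, including Basp1 (-1.495), Stmn2 (-1.38) and Crmp1 (-1.68), and 0 passed without knockdown replicate 1 or 6 and 1 without replicate 2 or 5. In control, omission of replicate 1, 2 or 3 left 1 higher and 4 lower, and FPKM as deposited gave 5 and 9. Only Crmp1 passed for the knockdown effect, in cell bodies (0.49, SE 0.09, limma adjusted p = 0.0228), and no gene of the list passed there without somatodendritic control replicate 1, 2, 3 or 4, after quantile normalization (0.0813 for Crmp1) or with all 20 libraries in 1 fit. With the settings of the reported test, the remaining tested genes of these 5 lists passed neither for the knockdown effect in either compartment nor for the interaction. In cell bodies, FPKM as deposited gave 3 regeneration-associated, 2 p53 and Gadd45 and 1 Jnk and Dlk gene as higher after knockdown, array weights gave 1, 2 and 1, and omission of knockdown replicate 6 gave 1 p53 and Gadd45 gene. In axons, all 20 libraries in 1 fit gave 1 stress response gene and 1 p53 and Gadd45 gene as lower.

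**Figure D4:**
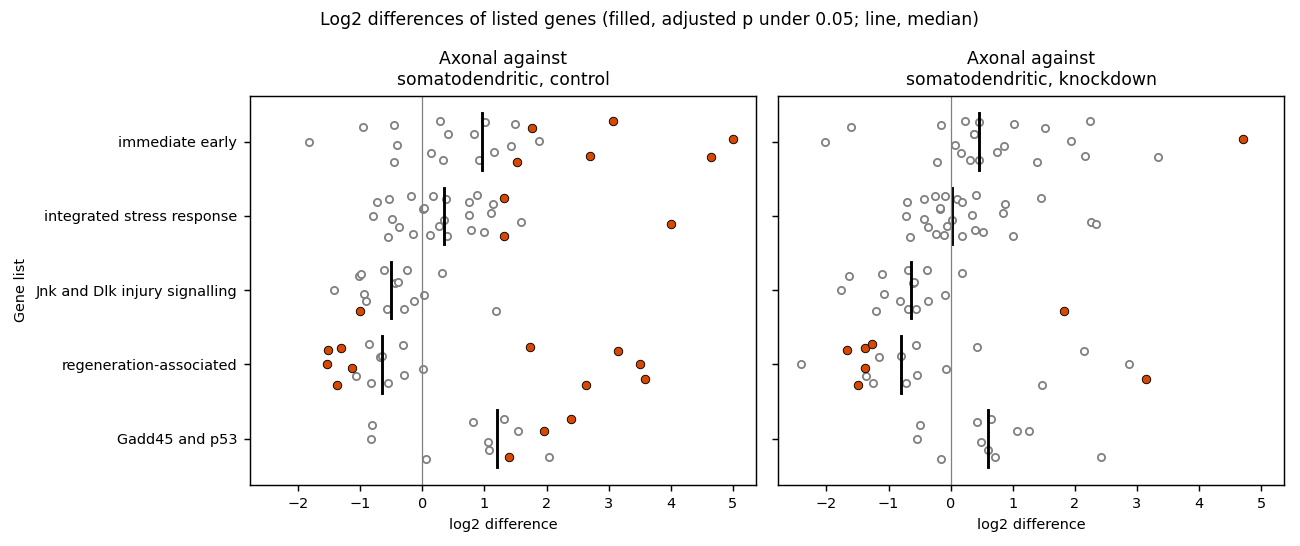
Log2 differences (horizontal axis) of every tested gene of 5 lists between axonal and somatodendritic libraries, in control and in knockdown. Filled points have an adjusted p under 0.05 and the line is the list's median, 0.96 for immediate early genes in control and 0.46 in knockdown libraries. In control, filled points of the regeneration-associated list lie on both sides of 0.

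Markers of other cells differed between the compartments in both directions. The fibroblast list of 6 genes summed to 11.9 to 47.9 FPKM in axonal control and 1.94 to 12.5 in somatodendritic control libraries, and to 20.3 to 101 and 1.80 to 13.9 in the knockdown pair. Its main gene Col1a1, a collagen, was higher in axons by 3.51 in control (SE 0.52, limma adjusted p = 0.00425) and by 3.41 in knockdown libraries (SE 0.61, limma adjusted p = 0.0185), while Lum was at 0 in all axonal libraries. No gene of the list passed without control replicate 1 or 2, or without knockdown replicate 1, 2, 5 or 6. The 4 dividing cell markers, Cdk1, Top2a, Mki67 and Ccnb1, summed to 94.4 to 179 FPKM in axonal control and 49.1 to 69.3 in somatodendritic control libraries, and to 19.3 to 253 and 0.955 to 57.4 in the knockdown pair. In control 3 of the 4 passed as higher in axons, beside 3.93% of all genes, and 0 passed without replicate 1 or 2 and 1 without replicate 3. Of the 6 astrocyte markers Gja1, a gap junction gene, was higher in control axons by 1.57 (SE 0.27, limma adjusted p = 0.00711), while the median of that list, which includes Aqp4 at a scaled mean of 0.963 FPKM in control axons, was -0.52. The 6 oligodendrocyte lineage markers summed to 9.40 to 43.7 FPKM in axonal control and 56.1 to 105.5 in somatodendritic control libraries (median log2 difference -1.28), and Olig1, a transcription factor of that lineage, was lower in control axons (-2.01, SE 0.41, limma adjusted p = 0.0164). Of 5 tested microglia markers 0 passed the threshold of limma after adjustment in control, beside 6.85% of all genes. Before adjustment 2 passed, both lower in axons, beside 22.9% of all genes. Of the 5 markers 3 had a scaled mean under 1 FPKM in 1 compartment, among them 1 of these 2. The 4 nuclear RNAs, Malat1, Meg3, Snhg11 and Neat1, summed to 440 to 742 FPKM in axonal control and 776 to 1147 in somatodendritic control libraries, and to 1155 to 2307 and 677 to 1366 in the knockdown pair. Of the 4, Malat1 alone passed, higher in knockdown axons than in knockdown cell bodies by 1.30 (SE 0.23, limma adjusted p = 0.0176, and 0.0666 after quantile normalization), beside 1.28% of all genes. Between control compartments 0 passed, beside 6.85% of all genes. Snhg11 had a mean of 58.9 FPKM in knockdown axons and 69.9 in knockdown cell bodies, and Neat1 of 3.82 in control axons and 1.20 in control cell bodies. The part of these cells in the axonal values of Junb, Gadd45a and Fos was not tested. Nor was it for the immediate early, stress response, p53 and Gadd45, and regeneration-associated lists. That of nuclear RNA in the knockdown values of Gadd45a and Fos was not tested either.

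**Figure D5:**
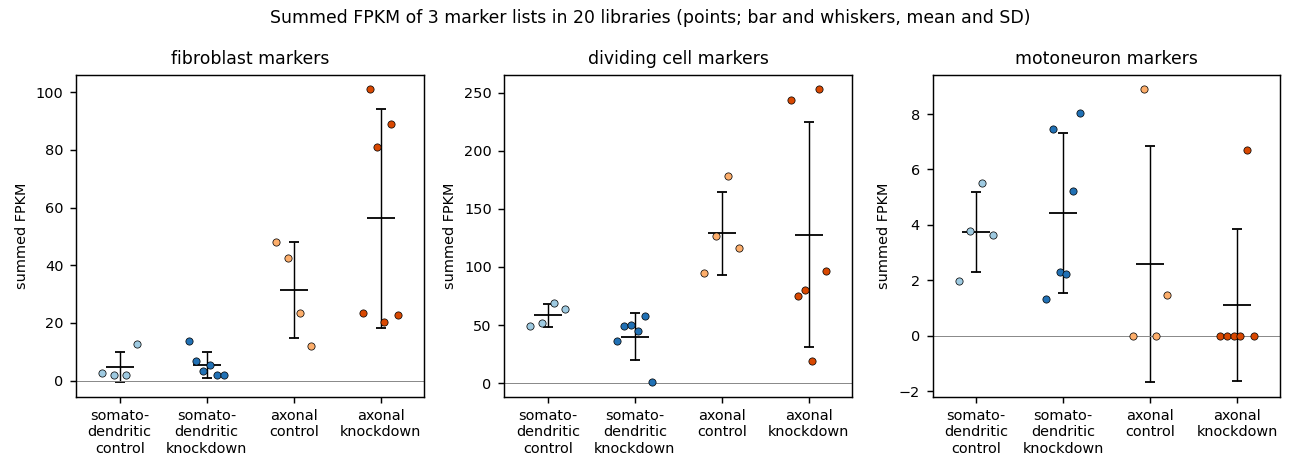
Summed FPKM (linear axis) of the fibroblast, dividing cell and motoneuron marker lists in each of the 20 libraries, by group on the horizontal axis. Points are libraries, and the bar and whiskers are the mean and SD. Fibroblast sums of all 6 axonal knockdown libraries (20.3 to 101) exceed those of all 6 somatodendritic knockdown libraries (1.80 to 13.9), and no motoneuron sum exceeds 8.90.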

How the data were processed

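For 20 libraries of total RNA the authors deposited FPKM values per gene with a 95% interval, made with Cufflinks 2.2.1 on mouse build GRCm38. FastQC 0.10.1 is also named in the submitters' processing notes. The version of the aligner, strandedness and read totals are not given in the sources used here, and only per-sample columns were used. The 10 genes, the gene lists, the tests and the alternatives were set with earlier results of these data known. The named genes are the 10, Tardbp, up to 3 genes of lowest p per list and comparison, and the 3 nearest in pattern for members with a mean of at least 5 FPKM. The other called immediate early genes, Hspb1, Tnfrsf12a and single genes of the marker lists were named after their values were seen.

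The implied fragments of a value are its square divided by the squared SD that its interval gives. Relative depth is the median over 680 genes of fragments per FPKM. For Junb all 14 values above 0 gave whole fragment numbers within 0.02. For other genes the numbers can be fractions. Floors in fragments cover counting error only. Values at or under 0.001 FPKM count as 0.

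Scaling, done separately for each comparison, divided a library by its median ratio to the geometric mean, taken where no library was under 1 FPKM. Genes whose mean reached 1 FPKM entered the test, which ran on log2(FPKM + 1) in limma 3.58.1 under R 4.3.3 (trend, Benjamini-Hochberg adjustment over all genes tested), so that differences understate the change of low genes. The interaction was fitted over all 20 libraries. The test was checked on simulated data of like depth: sizes of change were recovered, mostly with a bias towards 0, few changed features passed after adjustment, and more unchanged than changed ones passed in every comparison but that between knockdown compartments. A failure to pass therefore does not show equal levels, and an isolated adjusted call is weak. Coordinates are those of the files. Overlapping genes come from GENCODE M21, which holds 96.0% of the genes. Python 3.11.15, numpy 2.4.6, pandas 2.3.3 and matplotlib 3.10.9 handled tables and figures. Alternatives changed the scaling, pseudocount, filter, fit, weights, block and libraries. Leaving out axonal knockdown replicate 1 alone was chosen after seeing the data.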

Additional observations from a re-analysis of the deposited data

Results flagged for a closer look

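A library far from the others of its group was found in 6 of the 36 sets of a gene and a group examined. For measurements that vary continuously chance gives about 1 in 20, a rate that does not hold for genes listed at 0 in most libraries, and in 4 of the 6 sets every other library was at 0, so that any value above 0 stands apart. Arc was 3.02 FPKM in axonal control replicate 1, 0.454 in somatodendritic control replicate 3 and 0.651 in somatodendritic knockdown replicate 4, each the only library of its group above 0. Atf3 was 1.03 FPKM in axonal control replicate 3, again the only library above 0, and 3.84 in somatodendritic knockdown replicate 4, where the next highest was 1.20. Gadd45a was 6.11 FPKM in somatodendritic knockdown replicate 4, where the next highest was 1.94. The library of somatodendritic knockdown replicate 4 stood apart for 3 of these genes. No member had a knockdown effect that differed between compartments after adjustment.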

How the results depend on the processing

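Of 713 repeats of a member's test under 41 alternatives, 651 kept direction and side of the threshold, 44 turned direction and 18 lost the call, and no member gained one. The cause was not tested. Leaving out libraries under a relative depth of 0.5 turned Atf4, Jun, Egr1 and Fos in some comparisons.

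Called genes numbered 134 (knockdown in cell bodies), 56 (knockdown in axons), 939 (compartments, control), 179 (compartments, knockdown) and 10 (interaction). For knockdown in cell bodies the count was 233 with FPKM as deposited, 212 with a pseudocount of 5, 62 with all 20 libraries in 1 fit and 434 with array weights. In axons it was 30 with a pseudocount of 0.1, 247 in 1 fit and 87 with weights. Between control compartments it was 2055 as deposited and 325 in 1 fit. Between knockdown compartments it was 74 with a pseudocount of 0.1, 74 with no filter, 771 in 1 fit, 405 with weights and 76 without libraries under a relative depth of 0.5. Leaving out 1 replicate gave 58 to 198, 36 to 70, 118 to 991, 5 to 250 and 10 to 17. That depth limit removed no control library, so the control compartments have no value for it.

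The deviations of same-numbered libraries showed little correlation (r from -0.059 to 0.087), which does not exclude that they are paired. The replicate block gave 32, 35, 460 and 13 calls in the first 4 comparisons, Jun -0.20 and Fos 0.18 for knockdown in cell bodies and Atf4 0.13 in axons, and it ended the calls of Junb (limma adjusted p = 0.0715), Gadd45a (0.0672) and Tardbp in cell bodies (0.0970), while 0 regeneration-associated genes passed for knockdown in cell bodies.

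For knockdown in cell bodies Atf4 (0.12) and Ddit3 (0.17) turned as deposited, Ddit3 after quantile normalization (0.024) and with a pseudocount of 5 (0.027), Egr1 with a pseudocount of 0.1 (-0.32), Jun with weights (-0.0385), and Jun (-0.18) and Fos (0.19) under the depth limit. In axons Atf4 was 0.22 under that limit. Between control compartments Jun (-0.051), Atf4 (-0.31) and Gadd45a (-0.12) turned as deposited and Gadd45a with a pseudocount of 0.1 (-0.36). Between knockdown compartments Atf4 was 0.33 with weights, and under the depth limit Atf4 was 0.58 and Jun 0.25. In the interaction that limit gave Fos -0.072, Egr1 -0.13 and Atf4 0.36.

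With 1 replicate left out, knockdown differences in cell bodies ran from -0.19 to 0.0725 for Atf4, -0.37 to 0.31 for Ddit3, -0.16 to 0.61 for Egr1 and -0.13 to 0.22 for Jun, and in axons from -0.48 to 1.15 for Fos and -0.018 to 1.40 for Gadd45a. Between control compartments Gadd45a ran from -0.33 to 1.28 and Junb from 1.69 to 2.55 (limma adjusted p from 0.0640 to 0.218). Between knockdown compartments Atf4 ran from -0.48 to 0.32, Ddit3 from -0.56 to 0.31 and Gadd45a from 2.83 to 3.63 (limma adjusted p from 0.00920 to 0.119). In the interaction Atf4 ran from -0.80 to 0.040 and Egr1 from -0.18 to 0.76. Tardbp in cell bodies ran from -3.29 to -2.68, with no call when any 1 control library was left out (limma adjusted p from 0.0615 to 0.0955).

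Junb lost its call as deposited (limma adjusted p = 0.0532), with pseudocounts of 0.1 (0.0887) and 5 (0.0515), with no filter (0.0800), in 1 fit (0.0767) and without any 1 replicate. Gadd45a lost its call with a pseudocount of 0.1 (limma adjusted p = 0.0541) and in the cases given with its result. Tardbp in cell bodies lost it with a pseudocount of 0.1 (limma adjusted p = 0.128).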
